A study of Homo sapiens with 10 samples.

Results

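The change in mRNA between 1 h and 3 h of treatment was read from 4 of the 10 arrays of a time course in MOLT-4, an established human cell line from an acute leukaemia of the T-cell lineage: the 2 arrays of 3 h were set against the 2 arrays of 1 h, with no reference to 0 h. The members are the arrays whose titles carry these times. The whole course holds 2 arrays at each of 0 h, 0.5 h, 1 h, 3 h and 6 h, hybridised to an Affymetrix human expression array, on which a gene is read by probe sets, each a group of short oligonucleotides. Cells of every group, 0 h included, are labelled with 10 ug/mL of MABL, an antibody against CD47, and with 50 ug/mL of an agent given only as GAM. No array of cells kept for 1 h or 3 h without these agents was analysed here, so the antibody, GAM, time in culture and handling cannot be told apart. Nor do the labels tie the arrays of a time to separate cultures. The p-values therefore speak of the spread among these samples alone, and that spread may be technical.

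Levels are the square roots of the deposited scores, read as log2 expression. This scale is a reading of the values and is not stated by the submitters, so every log2 change and fold depends on it. Of 22215 probe sets other than controls, 4276 had a deposited score of at least 25 (a level of 5) on at least 2 of the 10 arrays and were tested. A probe set was called when its adjusted p from limma was under 0.05. Each change is 3 h minus 1 h with its standard error (SE) from the fit, and n = 2 arrays at each time.

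CD47 is a membrane glycoprotein that binds thrombospondin and SIRP alpha, and antibodies against it can kill leukaemic lymphoid cells. Cells that meet a stimulus usually express a first wave of short-lived mRNAs for transcription regulators, the immediate early genes, and follow it with target genes of slower programmes. Among these programmes are the response to low oxygen through the factor HIF-1, the unfolded protein response of the endoplasmic reticulum (ER) and the supply of ribosomes, chaperones and proteasomes.

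The 4 arrays had similar overall levels. The submitters' method, GCRMA, normalizes arrays by quantiles, so this says little about the samples. Markers of the T lineage were present, though not every defining one. Over tested probe sets the array medians were 6.72 and 6.62 at 1 h and 6.74 and 6.56 at 3 h. The median change of all tested probe sets was -0.05 and their median SE was 0.148. Of 18 T-lineage markers on the array, 13 were tested, led by CD3D with a mean level of 12.42 over the 10 arrays. The others, CD2, CD4, CD7, RAG1 and PTPRC (CD45), did not pass the filter. No B-cell, myeloid or erythroid marker passed the filter (highest means over the 10 arrays 3.77, 3.16 and 4.21), and of 10 epithelial and fibroblast markers only a COL1A1 probe set did, at 5.24. Signals of RNA added during labelling stood higher at 3 h, with means over 18 control probe sets of 10.39 and 10.12 at 1 h and 10.79 and 10.74 at 3 h, and their part in the changes was not tested beyond a fit with this signal as a covariate.

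Between 1 h and 3 h, 83 probe sets rose and 78 fell, out of 4276 tested (1.94% and 1.82%). The genes with the largest changes were DDIT4, an inhibitor of mTORC1 signalling, which rose, and ID1, which keeps E proteins and related transcription factors from binding DNA, which fell. The called probe sets with 1 gene symbol stood for 56 genes that rose and 67 that fell. Changes past 2-fold (a log2 change of 1) made up 31 of the 83 and 16 of the 78, so most called changes were smaller. Both 3 h arrays lay above both 1 h arrays for 838 probe sets (19.6%) and below them for 1332 (31.2%), and 904 (21.1%) had an unadjusted p under 0.05. By a rule like that of the submitters, with both 3 h arrays past 2-fold from the geometric mean of the 1 h arrays, 27 were higher (0.631%) and 13 lower (0.304%).

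The counts rest on all 10 arrays sharing 1 estimate of the spread. Dropping either array of 0 h, 0.5 h or 6 h gives the same fit of this difference. Such a fit leaves the difference unchanged and alters only that estimate. The fits below that leave out 1 array are therefore not 10 separate checks. With only the 4 arrays of 1 h and 3 h in the fit, 1 probe set was called higher and 1 lower, and with the spike-in signal as a covariate 3 and 2, DDIT4, ID1 and BNIP3 among them. Leaving out 1 array of these times moved these counts: 19 probe sets were higher and 5 lower when 1 h replicate 1 was dropped, and 7 and 5 for 1 h replicate 2. Dropping 3 h replicate 1 gave 13 and 27, whereas dropping 3 h replicate 2 gave 89 and 27. DDIT4, ID1, PFKFB3, HERPUD1 and PMAIP1 were called in each of the 10 fits that left out 1 array. Of the 70 named probe sets that were called, these 5 kept their call in all 10 fits, 60 in some and 5 in none, and 35 were called in fewer than 5 of the fits.

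**Figure D1:**
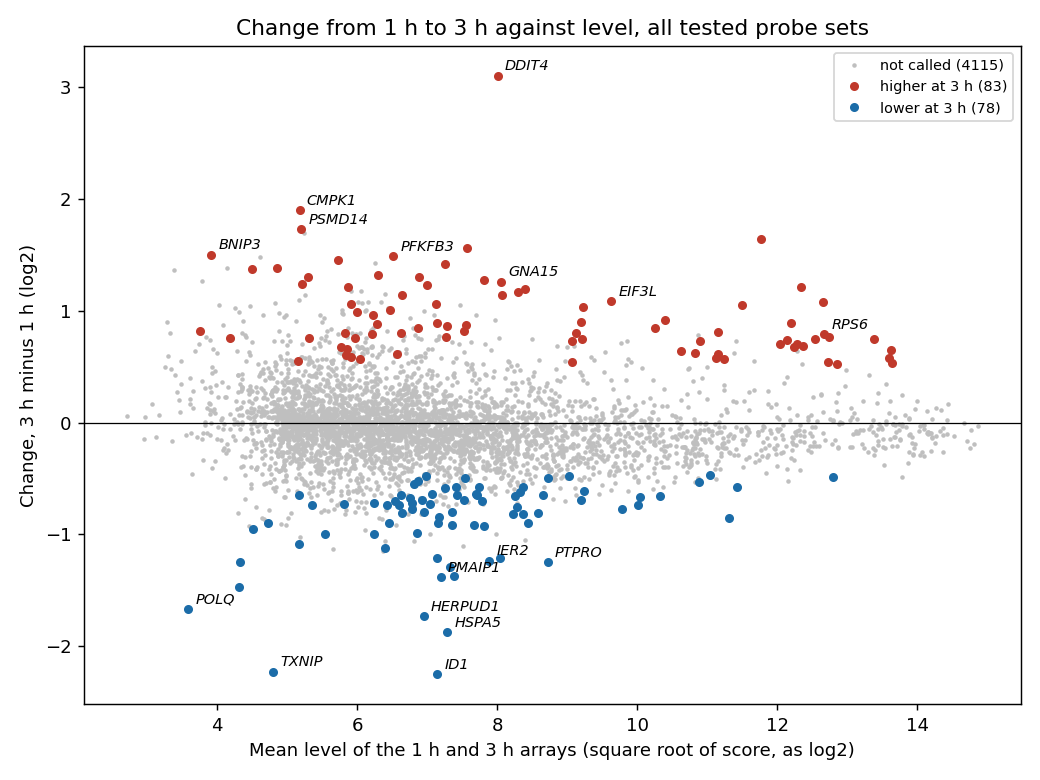
Change from 1 h to 3 h (log2, vertical axis) against the mean level of the 4 arrays (horizontal axis) for all 4276 tested probe sets, with the 83 called higher in red, the 78 called lower in blue and the other 4115 in grey. DDIT4 stands apart at the top at 3.10, ID1 and a TXNIP probe set at the bottom, and the bright end on the right holds more red than blue points.

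Immediate early genes changed in both directions. Of 9 tested members 2 fell, IER2 and IER5, and 2 rose, KLF10 and ZFP36L2. Over all 2819 genes, each by its brightest probe set, 1.67% rose and 2.16% fell. ID1 was measured at 8.30 and 8.23 on the 1 h arrays and 6.05 and 5.98 on the 3 h arrays. The arrays of the other times all lay close to level 6, so ID1 stood high at 1 h alone, and replicates nearly coincided. ID1 changed by -2.25 ± 0.09 (SE), a 4.76-fold fall (adjusted p = 3.22e-05).

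IER2, a nuclear immediate early protein, was read at 8.68 and 8.32 on the 1 h arrays and 7.58 and 6.95 on the 3 h arrays. The 3 h arrays lay below both 1 h arrays, and the 6 h arrays (7.97 and 8.16) lay near the 1 h level again. Its change was -1.23 ± 0.26 (adjusted p = 0.0456). This call was near the threshold and was lost in each of the 10 fits that left out 1 array (adjusted p from 0.0523 to 0.213). For IER5, a related immediate early gene with a role in the heat shock response, the levels were 7.15 and 6.78 on the 1 h arrays and 6.18 and 5.51 on the 3 h arrays. The values did not overlap, and the 3 h replicates differed from each other by more than those of 1 h. IER5 changed by -1.12 ± 0.24 (adjusted p = 0.0477), a call kept in 1 of the 10 fits that left out 1 array.

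Of the regulators that rose, ZFP36L2 encodes a protein that binds AU-rich elements and speeds mRNA decay. Its brightest probe set was read at 8.77 and 8.73 on the 1 h arrays and 9.73 and 9.57 on the 3 h arrays, a change of 0.90 ± 0.12 (adjusted p = 0.0173). The arrays up to 1 h lay together, below those of 3 h and 6 h. The other tested probe set of ZFP36L2 changed by 0.23 and was not called. KLF10, a zinc finger factor induced by TGF beta, was dim: 4.18 and 4.16 on the 1 h arrays and 5.56 and 5.55 on the 3 h arrays. It had stood at 5.63 and 5.73 at 0 h, lay below level 5 on the 0.5 h and 1 h arrays, and reached 6.78 and 6.92 at 6 h. KLF10 changed by 1.38 ± 0.22 (adjusted p = 0.0229), or by 0.55 when levels under 5 were raised to 5.

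HIF-1 targets formed the list with the highest median change, 0.29 against -0.06 over all genes: of 21 tested members 3 were called higher (14.3%, against 1.67% of all genes), DDIT4, PFKFB3 and the dim BNIP3, and none lower. Both 3 h arrays lay above both 1 h arrays for 12 of the 21 and below for 4, against 18.3% and 31.9% of all genes. However, 6 members were under level 5 on all 4 arrays, having passed the filter at other times, and with levels under 5 raised to 5 the list's median was 0 and 2 members were called. HIF1A itself was not tested, with a mean of 3.38 at both times.

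DDIT4 (REDD1) restrains mTORC1, the kinase complex that drives growth, when oxygen or energy is short. It was read at 6.60 and 6.32 on the 1 h arrays and 9.60 and 9.51 on the 3 h arrays. The 3 h replicates were close together and far above those of 1 h, and the 6 h arrays were higher still at 10.31 and 10.28. The change was 3.10 ± 0.14, an 8.57-fold rise (adjusted p = 4.07e-05). At earlier times DDIT4 had been at 6.89 (mean of 0 h) and 5.56 (0.5 h), so the high 3 h level followed a low one at 0.5 h. It was the only member of 12 tested mTORC1 regulators to be called (8.33%, against 1.67% of all genes called higher), the list's median being -0.09.

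PFKFB3 makes fructose 2,6-bisphosphate, the activator of phosphofructokinase, and so sets the pace of glycolysis. Its levels were 5.89 and 5.66 on the 1 h arrays and 7.36 and 7.16 on the 3 h arrays. The 1 h arrays were the lowest of the course and the 6 h arrays the highest, at 8.19 and 8.09. PFKFB3 changed by 1.49 ± 0.12, or 2.8-fold (adjusted p = 0.00245). BNIP3, a mitochondrial protein of the BCL2 family that promotes mitophagy, was read at 3.01 and 3.32 on the 1 h arrays and 4.87 and 4.46 on the 3 h arrays. All of these lay below level 5, and the 6 h arrays stood at 7.75 and 7.65. The call for BNIP3 (change 1.499, SE 0.21, adjusted p = 0.0174) therefore rests on dim signals, the change being 0 with levels under 5 raised to 5, and its other probe set was 3.82 at 1 h and 3.83 at 3 h. ADM, another target (adrenomedullin), named after its values were seen, was at 2.82 and 2.85 on the 1 h arrays and 4.06 and 3.41 on the 3 h arrays and at 7.96 and 8.23 at 6 h, so the high level was seen only after this interval.

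The promoters of DDIT4 and BNIP3 are shown, a choice made with their values and matches known. Both genes are HIF-1 targets that were called higher, BNIP3 from dim signals only. Both promoters hold the core letters that HIF-1 binds, ACGTG, in the 250 bases before the start. They are RefSeq sequences (GRCh38.p14), given 5′ to 3′ on the gene's strand, with the core in capitals (for BNIP3 the palindrome CACGTG, which holds the core on both strands).
DDIT4, chr10:72273674-72273923, plus strand: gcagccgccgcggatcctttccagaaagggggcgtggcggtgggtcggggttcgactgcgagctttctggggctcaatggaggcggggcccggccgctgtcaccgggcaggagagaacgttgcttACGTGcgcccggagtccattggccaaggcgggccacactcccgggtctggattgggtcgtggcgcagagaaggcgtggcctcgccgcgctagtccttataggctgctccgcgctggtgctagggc
BNIP3, chr10:131981924-131982173, minus strand: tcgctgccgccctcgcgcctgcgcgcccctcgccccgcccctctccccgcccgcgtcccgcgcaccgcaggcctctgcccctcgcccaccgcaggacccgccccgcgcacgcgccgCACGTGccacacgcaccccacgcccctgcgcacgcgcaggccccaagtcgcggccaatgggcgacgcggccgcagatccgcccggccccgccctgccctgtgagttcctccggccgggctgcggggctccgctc
The match in DDIT4 covers bases 125 to 121 before the start, and that in BNIP3 bases 134 to 129. The core was searched on both strands and is common, being in 6501 of 35116 promoters of this length (18.5%), and CACGTG in 6.34%. PFKFB3 has no such match in its window (chr10:6144671-6144920), while HERPUD1 and IER2, which were called lower, do have the core in theirs. Another motif, the CRE (TGACGTCA, in 1.65% of promoters), was searched for in the windows of IER2 and IER5 and was found in neither. A match is a description of the letters and not a binding site.

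Of 22 tested genes of glucose uptake and glycolysis, PFKFB3 rose (4.55%, against 1.67% of all genes), TXNIP and PFKM fell (9.09%, against 2.16%) and the median change was -0.05. TXNIP, which restrains glucose uptake and binds thioredoxin, fell on both of its tested probe sets. The probe set with the larger change was read at 5.95 and 5.86 on the 1 h arrays and 3.47 and 3.89 on the 3 h arrays. Both 3 h arrays lay under level 5, and the 6 h arrays (3.51 and 4.76) were apart from each other. TXNIP changed by -2.23 ± 0.36 on this probe set (adjusted p = 0.0238), or -0.91 with levels under 5 raised to 5. On the other it changed by -1.09 ± 0.21 (adjusted p = 0.0355), from a mean of 5.71 to one of 4.62, both 3 h arrays being under 5. With the floor this second change was -0.71 and not called, and its call was kept in 2 of the 10 fits that left out 1 array. PFKM, the muscle-type subunit of phosphofructokinase, changed by -0.65 ± 0.13 (adjusted p = 0.0371).

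**Figure D2:**
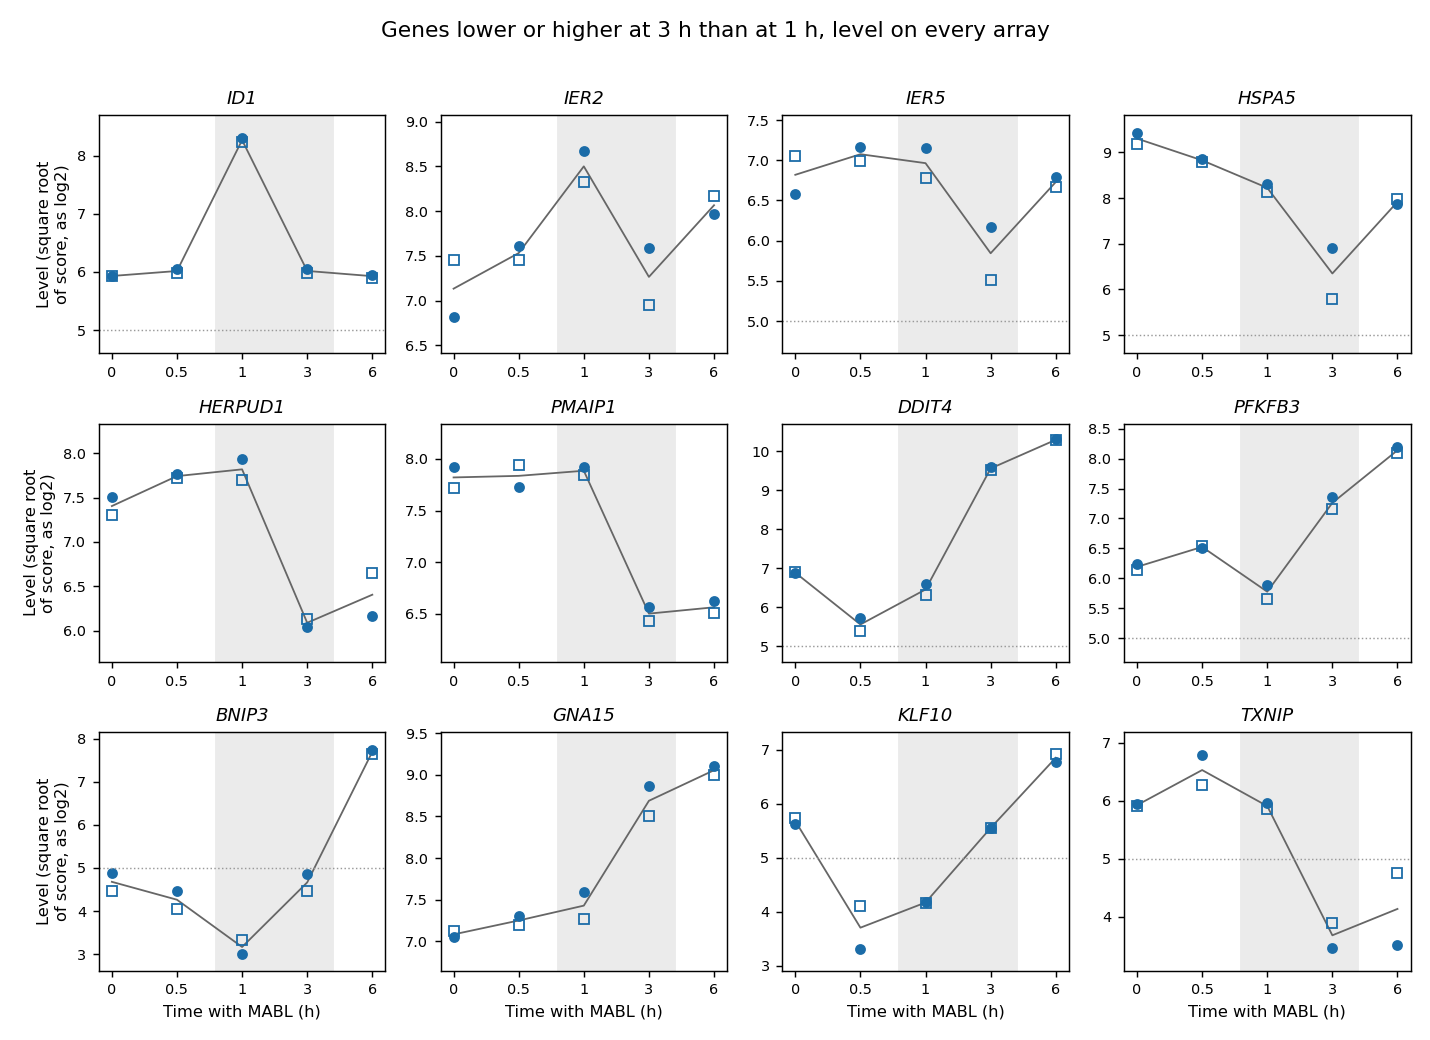
Level on every array (square root of the score, read as log2, vertical axis) against time (h, 5 times drawn at equal spacing) for 12 genes called lower or higher at 3 h than at 1 h. Filled circles are replicate 1, open squares replicate 2, the line joins the means, the dotted line is level 5 and the grey band marks 1 h to 3 h; ID1 is high at 1 h alone, HERPUD1 and PMAIP1 step down, and DDIT4 and PFKFB3 climb on to 6 h.

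The genes of the ER stress response that were called fell. Of 18 tested ER chaperones and stress genes 2 fell (11.1%, against 2.16% of all genes) and none rose (1.67% of all genes did). At an unadjusted p under 0.05 by limma 2 were higher and 4 lower (211 and 384 of all 2819 genes), and the list's median was -0.23. Both 3 h arrays lay below both 1 h arrays for 9 of the 18 (31.9% of all genes) and above for 2, CANX and P4HB, which were named after their values were seen. HSPA5 (BiP) is the main Hsp70 chaperone of the ER lumen and a classic reporter of ER stress. It was read at 8.31 and 8.14 on the 1 h arrays and 6.90 and 5.80 on the 3 h arrays. The 3 h arrays were the lowest of the course but lay apart from each other, and the 6 h arrays had come back to 7.86 and 7.98. HSPA5 changed by -1.88 ± 0.30, a 3.67-fold fall (adjusted p = 0.0229). The call was lost without either 1 h array (the highest adjusted p of the 10 fits was 0.119).

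HERPUD1, an ER membrane protein of ER-associated degradation, was at 7.94 and 7.70 on the 1 h arrays and 6.04 and 6.13 on the 3 h arrays. These replicates were close together, and the 6 h arrays (6.16 and 6.65) stayed low. Its change was -1.73 ± 0.17, a 3.32-fold fall (adjusted p = 0.00455). The remaining 16 tested members were not called, among them the protein disulfide isomerases PDIA4 (change -0.37) and PDIA6 (change -0.56), also named after their values were seen. CANX (calnexin) stood at 6.16 and 6.41 on the 1 h arrays and 7.59 and 6.85 on the 3 h arrays and was not called (change 0.93 ± 0.27, adjusted p = 0.0945).

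The promoter of HSPA5, chosen for display after its values were seen, carries the ER stress response element (ERSE), CCAAT and CCACG with 9 bases between them, whose ends are in capitals (RefSeq, GRCh38.p14, 250 bases before the start, on the gene's strand).
HSPA5, chr9:125241344-125241593, minus strand: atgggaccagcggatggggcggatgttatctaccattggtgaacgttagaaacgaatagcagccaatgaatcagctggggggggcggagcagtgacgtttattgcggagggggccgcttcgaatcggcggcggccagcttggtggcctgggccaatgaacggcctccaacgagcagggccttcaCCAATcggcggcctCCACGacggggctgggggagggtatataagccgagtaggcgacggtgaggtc
The match covers bases 66 to 48 before the start. Searched on both strands, the element was in 26 of 35116 promoters of this length (0.074%). HERPUD1 has no match to this exact form, with its 9-base spacing, in its window (chr16:56931892-56932141). Other forms of ER stress element were not searched, so this does not show that its promoter lacks one.

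In lipid synthesis, 2 of 11 tested members of the cholesterol and fatty acid list fell (18.2%, against 2.16% of all genes). None rose (1.67% of all genes did), and the median was -0.18. SCD, the stearoyl-CoA desaturase, was read at 6.73 and 6.74 on the 1 h arrays and 5.84 and 5.64 on the 3 h arrays on the probe set that was called. The 1 h replicates coincided and both 3 h arrays lay below them. SCD changed by -0.997 (SE 0.18, adjusted p = 0.0328), a call kept in 2 of the 10 fits that left out 1 array. Its other tested probe set changed by -0.15 and was not called. INSIG1, an ER protein that holds back SREBP, changed by -0.57 ± 0.11 on its brightest probe set (adjusted p = 0.0355), and 2 others that changed by -1.06 and -0.08 were not called. Its levels at 6 h (7.99 and 8.16) were above those of 1 h (7.80 and 7.60).

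Among cell death genes PMAIP1 fell and the others were mostly not called. PMAIP1 (NOXA), a BH3-only protein that neutralises MCL1, was read at 7.93 and 7.85 on the 1 h arrays and 6.57 and 6.43 on the 3 h arrays. Its levels formed 2 plateaus, with 0 h, 0.5 h and 1 h near 7.8 and 3 h and 6 h near 6.5. The change was -1.38 ± 0.12, a 2.61-fold fall (adjusted p = 0.00312). Of 10 tested BCL2 family members, only PMAIP1 and BNIP3 were called, the latter higher at levels under 5 on all 4 arrays and not with the floor. These were 10% in each direction, against 1.67% of all genes called higher and 2.16% lower. Of 16 caspases and death factors only the mitochondrial protease HTRA2, outside the naming rule, was called (lower, 6.25%). Of 8 p53 targets only PMAIP1 was called (12.5%).

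Signalling genes at the membrane changed singly. GNA15, a G protein alpha subunit found mainly in blood cells, which couples receptors to phospholipase C, was at 7.59 and 7.27 on the 1 h arrays and 8.87 and 8.51 on the 3 h arrays. It was higher on both 3 h arrays and on both 6 h arrays (mean 9.06). GNA15 changed by 1.26 ± 0.15, or 2.39-fold (adjusted p = 0.0153). It was the only one called of 12 tested G protein subunits (8.33%, against 1.67% of all genes called higher). PTPRO, a receptor-type tyrosine phosphatase, went the other way, from 9.55 and 9.15 to 8.19 and 8.01, a change of -1.25 ± 0.17 (adjusted p = 0.0173). The mRNA of CD47, the antigen, was 8.60 and 8.33 at 1 h and 8.75 and 8.64 at 3 h on its brightest probe set, a change of 0.23 ± 0.13 (adjusted p = 0.371), and changed by -0.07 on another. Neither was called.

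Much of what rose had been low since 0.5 h. Over the 83 probe sets that rose, the median level went from 8.52 (0 h) through 7.51 (0.5 h) and 7.11 (1 h) to 8.35 (3 h) and 8.91 (6 h). For the 78 that fell it was 7.65, 7.76, 7.80, 6.75 and 7.03 in the same order. The 1 h and 3 h values chose both sets, so the step between them is no result. The comparisons that follow use 0 h, 0.5 h and 6 h, whose arrays did not enter the differences that were called. These comparisons share arrays with each other. The 0.5 h arrays enter the change from 0 h and the change to 6 h with opposite sign. A low level at 0.5 h moves both, so the fall and the rise are not separate observations. The arrays of these times did enter the filter and the shared estimate of the spread. BNIP3 passed the filter only through its 6 h arrays, and POLQ only through arrays of 0 h and 0.5 h. For such probe sets a high level at those times was a condition of being tested. Of the 83 and the 78, 11 and 9 had a mean below level 5 at 1 h or 3 h, and their part in the counts below was not tested.

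From 0 h to 0.5 h, 76 of the 83 (91.6%) changed downward against 46.8% of all tested probe sets, and 64 (77.1%) were called lower against 15.1%. Their median change was -0.79, and 1 was called higher (1.92% of all were). From 0.5 h to 6 h, 73 of the 83 (88%) went up against 37.1% of all, and 62 (74.7%) were called higher against 8.58%, with a median of 0.84. Between 0 h and 6 h they were split, with 40 up, 43 down and a median of -0.03, and 12 were called higher (4.07% of all) and 5 lower. Of the 78 probe sets that fell, 1 was called lower from 0 h to 0.5 h and the median change was 0.09. From 0.5 h to 6 h, 72 (92.3%) went down and 53 (67.9%) were called lower, against 62.9% and 15.1% of all. They were also down from 0 h to 6 h, 72 in sign and 52 (66.7%) by call, against 65.2% and 21.6%.

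**Figure D3:**
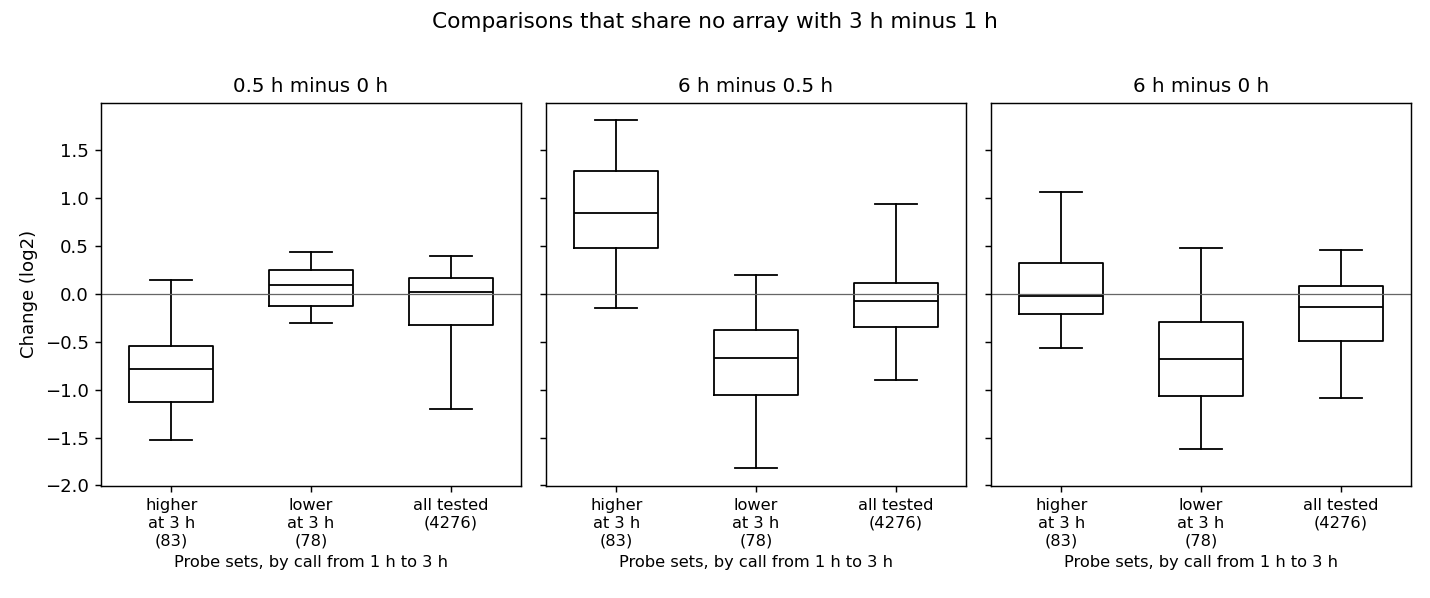
Change (log2, vertical axis) of the 83 probe sets that rose from 1 h to 3 h, the 78 that fell and all 4276 tested, in 3 comparisons that use none of the 1 h or 3 h arrays. Boxes span the quartiles with the median as a line and whiskers reach the 5th and 95th percentiles; the set that rose is low in 0.5 h minus 0 h, high in 0.5 h to 6 h and near 0 in 6 h minus 0 h, and the set that fell is low in the last 2.

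The proteasome, which degrades tagged proteins, had 2 members with this course among 40 tested genes (5%, against 1.67% of all genes called higher). None fell by call (2.16% of all genes did), and the median was -0.11. PSMA1, an alpha ring subunit of the core particle, rose on all 3 of its probe sets. On the probe set with the largest change PSMA1 was at 7.12 and 6.45 on the 1 h arrays and 8.55 and 8.15 on the 3 h arrays. Its means had been 8.78 at 0 h and 7.32 at 0.5 h, so the 3 h arrays lay between the low values and the starting ones. PSMA1 changed by 1.56 ± 0.25 (adjusted p = 0.0238). Dropping either 1 h array, or the first of 3 h, left neither proteasome gene called on its brightest probe set, and with equal array medians 5 of the 40 were called higher. PSMD14, the deubiquitinase of the regulatory particle, was at 4.17 and 4.51 on the 1 h arrays and 6.65 and 5.49 on the 3 h arrays, below level 5 at 1 h and with 3 h replicates apart. Its change was 1.73 ± 0.34 (adjusted p = 0.0355) and was not called with levels under 5 raised to 5. COPS3, of the related COP9 signalosome, changed by 1.38 ± 0.28 (adjusted p = 0.0408), or by 0.27 with that floor and then not called.

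Ribosomal proteins that were called all rose. Of 52 tested cytosolic ribosomal proteins 6 rose (11.5%, against 1.67% of all genes) and none fell (2.16% of all genes did). Both 3 h arrays lay above both 1 h arrays for 18 and below them for 14, against 18.3% and 31.9% of all genes. The list's median was nevertheless -0.02, and it was 0.01 with equal array medians and 0.03 after a second quantile normalization. RPS6, the small-subunit protein phosphorylated by S6 kinase, was at 12.27 and 12.29 on the 1 h arrays and 13.12 and 13.02 on the 3 h arrays on its brightest probe set. Its replicates were tight and the 0 h arrays had read 13.44 and 13.09. The change of RPS6 was 0.79 ± 0.14 (adjusted p = 0.0274), and all 3 tested probe sets were called. RPL14, a large-subunit protein, was also called on all 3, by 1.05 ± 0.11 on the brightest (adjusted p = 0.00697). RPS24, RPL23A and RPL10A rose by 0.77, 0.75 and 0.58, and RPL24 was the sixth. Ribosomal protein genes have many near-identical copies in the genome, so their probe sets may read more than 1 locus. Without 1 h replicate 2 none of the 52 was called, and without 1 h replicate 1 or 3 h replicate 1 only 1 was.

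Among 41 translation factors 2 rose (4.88%, against 1.67% of all genes) and 1 fell (2.44%, against 2.16%), with a median of 0.02. EIF3L, a subunit of the initiation factor eIF3, was at 9.23 and 8.95 on the 1 h arrays and 10.36 and 9.98 on the 3 h arrays, having read 10.44 and 10.22 at 0 h. Both 3 h arrays had regained most of the 0 h level. EIF3L changed by 1.08 ± 0.17 (adjusted p = 0.022), and EIF2S1, the alpha subunit of eIF2, by 0.88 ± 0.17 (adjusted p = 0.0328). The other tested probe set of EIF2S1 changed by 0.45 and was not called. EIF4E2, a cap-binding repressor of translation, changed by -0.70 ± 0.14 (adjusted p = 0.0362), a call lost in each of the 10 fits that left out 1 array, and that of EIF2S1 was kept in 3. The amino acid genes IARS1, the isoleucyl-tRNA synthetase, and SLC7A5, a transporter of large neutral amino acids, rose by 1.06 and 0.87. They were the 2 called of 25 tested ATF4 targets (8%, against 1.67% of all genes called higher), whose median was 0.01. The call of IARS1 was kept in 3 of the 10 fits that left out 1 array and not with the floor, and that of SLC7A5 in 1. SLC7A5 was highest at 3 h in the whole course, at 8.23 and 7.74.

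Of 33 tested ribosome biogenesis genes 1 was called on its brightest probe set, NOLC1 (3.03%, against 2.16% of all genes called lower). NPM1 (nucleophosmin), a ribosome assembly chaperone, was at 5.92 and 6.22 on the 1 h arrays and 7.38 and 7.04 on the 3 h arrays on the probe set with the largest change, 1.14 ± 0.19 (adjusted p = 0.0254). A second probe set of NPM1 was called and the brightest was not (adjusted p = 0.0584). NOLC1, a nucleolar phosphoprotein, went from 8.36 and 8.19 to 7.23 and 7.48, a change of -0.93 ± 0.15 (adjusted p = 0.0254). The other tested probe set of NOLC1 changed by -0.23 and was not called. Outside that list, YRDC, which makes a modified base of tRNA, fell by 1.22 (adjusted p = 0.022) and went on down to 6.16 and 5.98 at 6 h.

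Cytosolic chaperones divided. HSPA14, a ribosome-associated Hsp70, and CCT2, a subunit of the chaperonin TRiC, rose by 1.31 and 0.81, and PTGES3 (p23), a co-chaperone of Hsp90, changed by -0.67. These were the 3 called of 26 tested heat shock proteins, whose median was 0.02. The shares were 7.69% higher and 3.85% lower, against 1.67% and 2.16% of all genes. CCT2 read 7.10 and 7.15 at 1 h and 8.23 and 7.65 at 3 h, against 8.84 and 8.70 at 0 h, and so had not reached its 0 h level. PTGES3, by contrast, was 10.44 and 10.31 at 1 h and 9.80 and 9.62 at 3 h. Its call was lost in each of the 10 fits that left out 1 array, and that of CCT2 in 9.

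Other named genes that rose belong to no list. GLO1, the glyoxalase that removes methylglyoxal, was at 7.28 and 7.06 on the 1 h arrays and 8.65 and 8.24 on the 3 h arrays, against 9.08 and 8.97 at 0 h. It rose by 1.28 ± 0.16 (adjusted p = 0.0161) without overlap. PPA1, the cytosolic pyrophosphatase, rose by 1.19 ± 0.20 (adjusted p = 0.0254) and exceeded its 0 h mean of 9.51 only at 6 h (9.93). CMPK1, the UMP/CMP kinase, rose by 1.90 ± 0.39 (adjusted p = 0.0412) from a 1 h level under 5. With levels under 5 raised to 5 the change of CMPK1 was 1.13 and was not called. MAT2B, the regulatory subunit of methionine adenosyltransferase, rose by 1.06, and WTAP, of the complex that methylates adenosine in mRNA, by 1.21. A second tested probe set of WTAP changed by 0.76 and was not called.

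**Figure D4:**
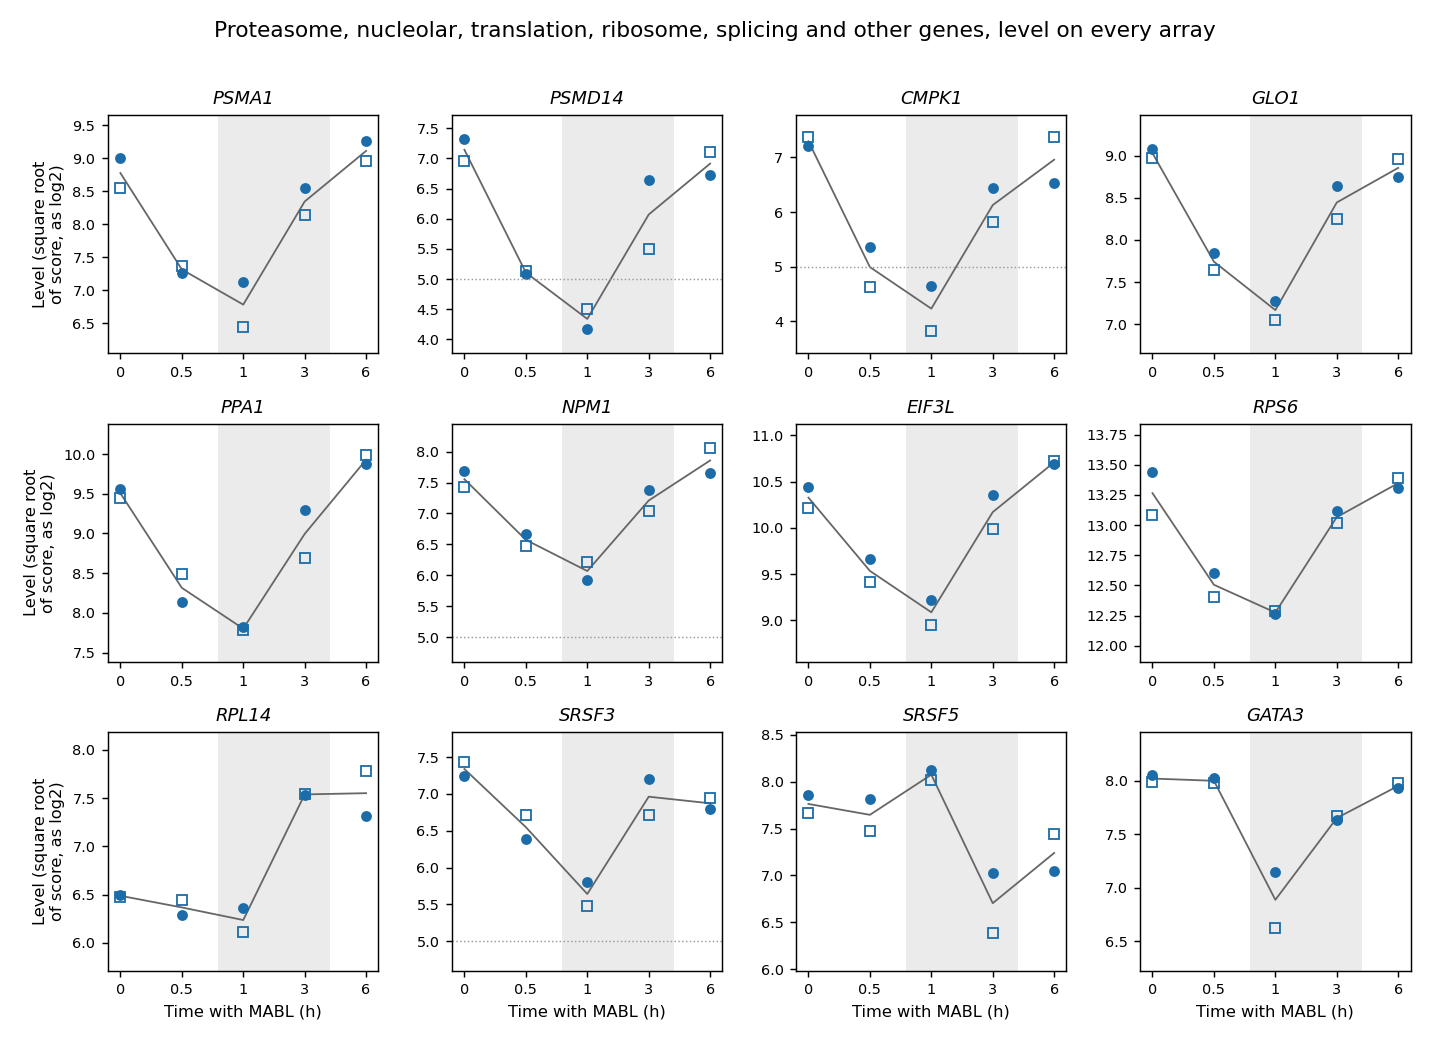
Level on every array (square root of the score, read as log2, vertical axis) against time (h, equally spaced) for 12 genes called higher or, for SRSF5, lower at 3 h than at 1 h. Symbols are as in the plot of genes lower or higher at 3 h; 10 of the panels dip at 0.5 h or 1 h and rise to 3 h, RPL14 steps up without an earlier dip on this probe set, and SRSF5 falls.

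mRNA splicing factors changed in opposite directions within the SR family. Of 61 tested HNRNP and SR genes 4 fell (6.56%, against 2.16% of all genes). Only 1 rose (1.64%, near the 1.67% of all genes). The median was -0.06 (0.01 after a second quantile normalization). SRSF3 rose on 2 of its probe sets, by 0.64 ± 0.12 on the brightest (adjusted p = 0.0328), from 10.31 and 10.30 to 11.07 and 10.82. SRSF5, an SR protein that shuttles to the cytoplasm, was at 8.13 and 8.02 on the 1 h arrays and 7.02 and 6.38 on the 3 h arrays. All 1 h values lay above the 3 h values and the 3 h replicates were apart. SRSF5 changed by -1.37 ± 0.23 (adjusted p = 0.0254), and by -1.29 on a second called probe set. SRSF6 changed by -0.82 ± 0.11, HNRNPA0 by -0.90 ± 0.13 and TRA2A by -0.73 ± 0.14. For SRSF6 and HNRNPA0 a second tested probe set did not share the fall (0.66 and 0.17, neither called), so these calls hold for the probe set and perhaps not the gene. No member was called without 1 h replicate 1 or without 1 h replicate 2.

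Mitochondrial genes were called at shares not far from those of all genes (1.67% higher and 2.16% lower). Of 45 mitochondrial ribosomal proteins, MRPS17 (-0.67) and MRPL18 (-0.48) fell (4.44%) and MRPL3 (0.86) rose (2.22%), with calls kept in 4, 2 and 1 of the 10 fits that left out 1 array. The median was -0.21, and 25 had both 3 h arrays below both 1 h arrays, against 31.9% of all genes. Of 64 respiratory chain and ATP synthase genes, NDUFC1 (-0.57), of complex I, and ATP5F1A (-0.47), the alpha subunit of ATP synthase, fell (3.12%) and ATP5PB (0.73), of its stalk, rose (1.56%). Here the median was -0.16, and 31 lay below in the same sense. The calls of NDUFC1 and ATP5F1A were lost in each of the 10 fits that left out 1 array. ATP5PB was at 8.76 and 8.63 on the 1 h arrays and 9.59 and 9.26 on the 3 h arrays, against 10.20 and 10.01 at 0 h, so it too had dipped.

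DNA replication genes held calls of both signs. Of 46 tested, RFC3 was called higher (2.17%, against 1.67% of all genes), and POLQ, RFC2 and GINS1 lower (6.52%, against 2.16%), with a median of -0.14. RFC3 and RFC2 are subunits of the same clamp loader and changed by 1.45 ± 0.27 (adjusted p = 0.0328) and -0.81 ± 0.17 (adjusted p = 0.0441). A second tested probe set of each was not called. It changed by 1.26 for RFC3, at levels under 5 on all 4 arrays, and by -0.36 for RFC2. On the called probe sets the levels were as follows. RFC3 was at 5.02 and 4.98 on the 1 h arrays and 6.91 and 6.00 on the 3 h arrays, and RFC2 at 7.14 and 6.95 on the 1 h arrays and 5.96 and 6.51 on the 3 h arrays. The 3 h replicates of both genes were apart, RFC3 being higher on replicate 1 and RFC2 on replicate 2. POLQ, DNA polymerase theta, changed by -1.67 ± 0.32 at levels under 5 on all 4 arrays, and the licensing factor CDC6 by -1.24 ± 0.22 with only a 1 h array reaching 5. With levels under 5 raised to 5 these became 0.00 and -0.01, and the other tested probe set of CDC6 changed by -0.19 and was not called. GINS1, of the replicative helicase, changed by -0.61 ± 0.12 (adjusted p = 0.0355).

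Genes of G2 and mitosis were not called on their brightest probe sets: limma called none of 39, with 6 higher and 3 lower at an unadjusted p under 0.05 (211 and 384 of all 2819 genes). Both 3 h arrays lay above both 1 h arrays for 16 of them and below for 3, against 18.3% and 31.9% of all genes. With equal array medians 3 were called higher. The median was 0.09, or 0.004 when 3 h replicate 1 was left out and 0.227 when the other 3 h array was. CDK1, the kinase that starts mitosis, rose on 1 of its 3 probe sets, from 5.90 and 6.02 to 7.25 and 6.68 (1.00 ± 0.19, adjusted p = 0.0355). Of 13 tested T-lineage markers 12 were not called and 1 was called higher (7.69%, against 1.67% of all genes). CD3D read 12.37 and 12.47 on the 1 h arrays and 12.54 and 12.40 on the 3 h arrays, and the kinase LCK 10.46 and 10.30 on the 1 h arrays and 10.39 and 10.25 on the 3 h arrays. Neither was called (adjusted p = 0.885 and 0.858). GATA3, a zinc finger factor of the T lineage, was the exception, at 7.15 and 6.62 on the 1 h arrays and 7.64 and 7.67 on the 3 h arrays, with a mean of 8.02 at 0 h. It changed by 0.76 ± 0.16 (adjusted p = 0.0412), a call kept in 1 of the 10 fits that left out 1 array. The 1 h arrays were its lowest, and the 6 h arrays (7.93 and 7.97) were near those of 0 h. MYC was not called (change -0.38 ± 0.11, adjusted p = 0.0891), at 10.07 and 10.15 on the 1 h arrays and 9.79 and 9.66 on the 3 h arrays.

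**Figure D5:**
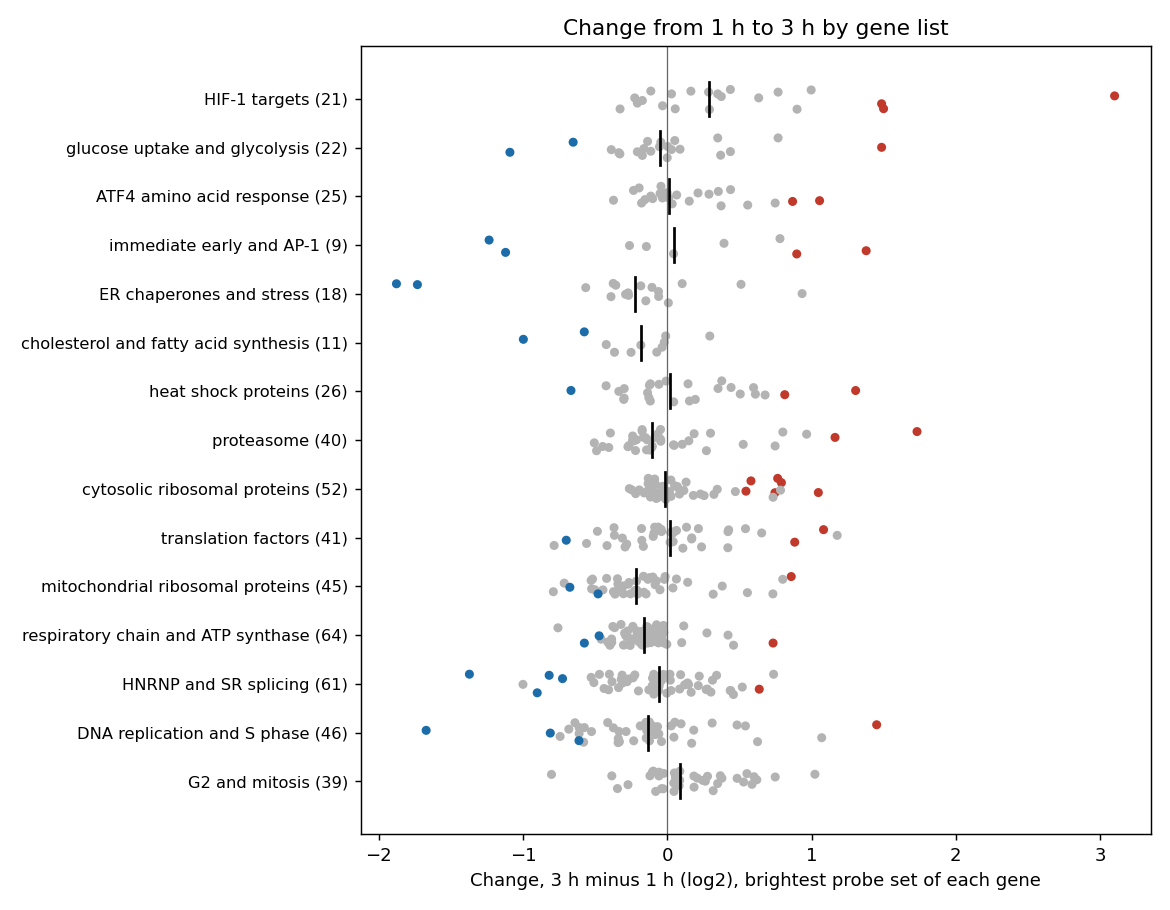
Change from 1 h to 3 h (log2, horizontal axis) of every tested gene in 15 lists, 1 point per gene by its brightest probe set, with called genes in red (higher) and blue (lower), others in grey, and the list's median as a vertical bar. The number of tested genes stands in brackets; HIF-1 targets have the highest median (0.29), ER chaperones and stress genes the lowest (-0.23), and the others lie between -0.21 and 0.09.

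Other genes that fell without a list were MAEA, a subunit of an E3 ubiquitin ligase complex, by 0.99, SLC35B1, a nucleotide transporter of the ER membrane, by 0.92, and DENND2D, an activator of Rab GTPases, by 0.92. FAM216A went from 6.13 and 5.95 to 5.12 and 4.97 and back to 6.41 and 6.23 at 6 h, so its fall (adjusted p = 0.0173) was seen at 3 h alone. The dim genes PNMA2 and RAB4A changed by -1.47 and -0.95, and by -0.07 and -0.05 with levels under 5 raised to 5. The other tested probe set of RAB4A changed by -0.37 and was not called. LSM6, of the ring that promotes mRNA decay and splicing, changed by -0.69 ± 0.10 (adjusted p = 0.0178). Unlike these genes it belongs to a list, that of mRNA decay and granules (33 tested, median -0.09). There LSM6 was the 1 member called lower and ZFP36L2 the 1 called higher (3.03% each, against 2.16% and 1.67% of all genes). Of lists with a single call, outside the naming rule, the polyamine enzyme ODC1 fell (-0.74), as did the tetraspanin CD53 (-0.70), and the nuclear pore protein NUP50 rose (0.96).

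No member was called in either direction among DEAD and DEAH helicases (15 tested), T-cell receptor and kinase genes (22), interferon-stimulated genes (13), NF-kB targets (6), histones (8), ER translocation (22), iron handling (10), the MYC network (4), or tubulin, actin and the cytoskeleton (38). With the G2 and mitosis list these hold 177 tested members, of which limma gave 16 higher and 25 lower at an unadjusted p under 0.05. Over all 2819 genes the counts were 211 and 384, so these lists lay near the background. At the background of 3.83% of all genes, lists of this size would hold few calls, so a count of 0 shows little. The neighbouring intervals share arrays with this one and are given for scale only: limma called 1 probe set higher and 1 lower from 0.5 h to 1 h (0.0234% each), and 214 higher and 89 lower from 3 h to 6 h (5% and 2.08%).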

How the data were processed

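RNA of 10 samples was read on arrays and the deposited table gives a score per probe set, which per the submitters' processing notes the authors made with GCRMA, a method that subtracts background estimated from probe sequence, normalizes arrays by quantiles and summarises each set. Its version and any later step are not given in the sources used here. The scores ran from 1.25e-05 to 238.1, and their square roots, up to 15.43, were read as log2. Of 22283 probe sets, 68 controls were left out. Changes were tested in R 4.3.3 with lmFit and eBayes of limma 3.58.1, with time as the only factor (5 residual and 3.06 prior degrees of freedom) and Benjamini-Hochberg adjustment over 4276 probe sets. Scripts were tested on simulated data. Symbols came from the platform annotation through RefSeq (19071 probe sets with 1 symbol, 1043 with several, 2169 with none).

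Arrays were grouped by the time in their titles. Lists (38) used each gene's brightest probe set and were described by counts and medians. The genes named were the 15 highest and 15 lowest called genes at level 5 or above at both times, the 5 highest and 5 lowest dimmer ones, up to 5 called members of each list with at least 2, and ID1, IER2, DDIT4, HSPA5, MYC, CD47, BNIP3, TXNIP, GNA15, HIF1A and T-lineage markers; genes outside it are said to be. The members and lists were chosen with earlier results of these data known. The number of arrays limits the precision. Alternatives covered scaling, filter, scale, floor, arrays in the fit, variance model, replicate block, array signals and each array left out.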

Additional observations from a re-analysis of the deposited data

How the results depend on the processing

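The reading of the scale, the filter and the number of arrays limit how many probe sets are called. The 1 h and 3 h arrays of the 161 called probe sets do not overlap, so that leaving out an array cannot turn their sign and says nothing about stability. Of 83 higher and 78 lower, the counts were 223 and 178 with equal array medians, 198 and 130 after a second quantile normalization, 10 and 11 with no filter (22215 tested), 126 and 153 with a filter at a score of 49, and 42 and 35 on log2 of the scores. They were 1 and 1 with only the 4 arrays of 1 h and 3 h (771 with an unadjusted p under 0.05), 3 and 2 with the spike-in signal as a covariate (554 unadjusted), and 44 lower with the 18S signal. The cause of these shifts was not tested, except that fewer arrays, or more probe sets, leave less power by construction. Leaving out 1 of the 10 arrays gave 7 to 89 higher and 5 to 58 lower, the lone array being assumed to vary like the other times. DDIT4 and ID1 were called under every alternative. The 5 times share replicate numbers, but samples of the same number did not deviate together (correlations of -0.231 to 0.147 over 10 pairs of times, 0.127 for 1 h and 3 h), so the numbers were not taken to pair them. With the replicate block 90 and 83 were called, and 63 of 70 named calls held. The floor gave 74 and 80, and 14 of the 70 named calls were lost with it, BNIP3, POLQ, CDC6 and PSMD14 among them. The comparisons of 0 h with 0.5 h and with 6 h were chosen after seeing the data. Under equal medians and a second quantile normalization, 76 and 76 of the 83 went up from 0.5 h to 6 h and 68 and 69 of the 78 went down.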
